A study of Mus musculus with 12 samples.

Results

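The 9 receptor genes described here are Siglec1, Marco, Cd209b, Cd209d, Cd163, Mrc1, Folr2, Timd4 and Csf1r, out of 23284 genes counted in axillary lymph node and spleen of mice. The genes were chosen by symbol, as receptors of sinus and marginal zone macrophages, and with the read counts of the same libraries in view. Some are carried by other macrophages as well, and the RNA is of whole tissue, so no cell type was followed by itself. Because of that choice, the differences of these genes between groups are given as a description. All 9 were found in both deposited tables, and all 9 passed the filter on low counts in every comparison.

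The mice were of 2 genotypes, and both lack mouse apoE and mouse apoA-I. DKO mice carry only these deficiencies. DKO/hA-I mice are DKO mice that overexpress apoA-I of human sequence, the protein around which high density lipoprotein forms; the sources used here do not give the promoter that drives the human gene. All mice were 30 weeks old and ate a normal laboratory diet, and each of the 4 groups (DKO and DKO/hA-I, axillary lymph node and spleen) had 3 poly(A) RNA libraries.

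Macrophages of lymph nodes and spleen sit where fluid passes by. In nodes they line the subcapsular and medullary sinuses and face the lymph, and in spleen the marginal zone macrophages and the metallophilic macrophages beside them face the blood, while red pulp macrophages take up aged red cells. Each layer carries its own set of endocytic and adhesion receptors, which catch particles, microbes, dying cells and modified lipoproteins. Survival of these cells depends on signals through the colony stimulating factor 1 receptor, the product of Csf1r.

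Library sizes ran from 5911835 (DKO node replicate 2) to 11950825 reads counted (DKO node replicate 3) in lymph node and from 8966001 to 11237680 in spleen. At these depths 3 reads correspond to 0.251 to 0.5075 CPM (reads of a gene scaled to the size of the library). The mice that gave nodes are not those that gave spleens, so tissue and set of animals cannot be told apart. The 3 DKO nodes share the middle number of their animal codes (75) and no DKO/hA-I node has it, so in lymph node the genotype cannot be told apart from whatever that number marks. The processed pseudogene Rpl31-ps12 (GRCm38 chr16:16819749-16820123, minus strand) had 71.5 ± 16.6 CPM in DKO and 0.097 ± 0.0093 CPM in DKO/hA-I nodes (SD, n = 3 each). In spleen its values were the other way round, 0.173 ± 0.066 CPM in DKO and 65.1 ± 11.2 CPM in DKO/hA-I. Genotypes below are those the labels give, and a difference in either tissue would change sign if the labels of that tissue had been swapped. If the labels of 1 tissue alone had been swapped, the tissue comparisons within a genotype and the difference between tissues would each mix the genotypes. The tissue labels were checked with markers: 11 red pulp macrophage genes (the list without the globin gene Hba-a1) summed to 3921 to 4279 CPM in spleens and 476.9 to 1674 CPM in nodes.

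The stretches just upstream of 5 receptor genes are printed because 4 of them (Marco, Cd209b, Cd209d and Timd4) had the larger differences between DKO and DKO/hA-I nodes, and the fifth, Mrc1, stood on the other side. They are the 250 bases before the annotated start, from RefSeq on GRCm38.p6, written 5′ to 3′ on the strand of the gene. The gene bounds given below are from another annotation, GENCODE, and reach into the windows of Cd209b, Cd209d and Mrc1. Capitals mark the letters GAGGAA or their reverse complement TTCCTC, a core to which the macrophage factor PU.1 can bind.
Marco: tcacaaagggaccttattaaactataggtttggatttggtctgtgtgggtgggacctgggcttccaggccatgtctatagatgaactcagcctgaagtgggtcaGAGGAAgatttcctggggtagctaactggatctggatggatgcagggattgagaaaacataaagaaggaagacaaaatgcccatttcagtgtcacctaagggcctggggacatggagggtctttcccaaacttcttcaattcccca
Cd209b: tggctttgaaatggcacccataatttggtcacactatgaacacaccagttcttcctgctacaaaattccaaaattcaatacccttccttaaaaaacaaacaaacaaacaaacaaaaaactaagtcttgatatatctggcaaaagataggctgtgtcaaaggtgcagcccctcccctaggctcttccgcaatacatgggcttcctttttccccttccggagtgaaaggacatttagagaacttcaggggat
Cd209d: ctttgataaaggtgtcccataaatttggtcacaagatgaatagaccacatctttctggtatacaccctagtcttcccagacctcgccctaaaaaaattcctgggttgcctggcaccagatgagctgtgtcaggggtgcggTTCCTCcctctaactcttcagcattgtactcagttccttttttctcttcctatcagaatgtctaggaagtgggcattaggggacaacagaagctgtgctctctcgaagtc
Timd4: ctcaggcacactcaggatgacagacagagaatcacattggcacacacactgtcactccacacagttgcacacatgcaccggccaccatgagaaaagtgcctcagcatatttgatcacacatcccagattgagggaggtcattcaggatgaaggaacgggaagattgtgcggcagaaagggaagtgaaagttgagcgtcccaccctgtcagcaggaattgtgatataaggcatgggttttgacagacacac
Mrc1: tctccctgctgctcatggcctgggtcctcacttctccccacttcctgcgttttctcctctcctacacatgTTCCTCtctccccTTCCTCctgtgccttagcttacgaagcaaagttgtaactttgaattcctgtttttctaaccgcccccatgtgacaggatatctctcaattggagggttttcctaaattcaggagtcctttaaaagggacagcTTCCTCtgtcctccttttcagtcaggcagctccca
The windows lie at chr1:120505025-120505274 (Marco, minus strand), chr8:3926842-3927091 (Cd209b, minus), chr8:3878500-3878749 (Cd209d, minus), chr11:46810549-46810798 (Timd4, plus) and chr2:14229164-14229413 (Mrc1, plus). The Marco window held 1 match 146 bases before the start, the Cd209d window 1 match 110 bases before it, and the Mrc1 window 3 matches at 180, 167 and 35 bases. Cd209b and Timd4 had 0 matches, as had the windows of Cd163 and Folr2, which are not printed. Among all 32851 promoter windows of this length, 23.3% held the letters on either strand. These matches are letters in a window, and no measurement of binding is part of the data.

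In axillary lymph node, 4 of the 9 receptors were lower in DKO than in DKO/hA-I and none was higher. Marco and the 2 C-type lectin genes Cd209b and Cd209d, with the phosphatidylserine receptor gene Timd4, made up the 4. Siglec1, Csf1r, Mrc1, Cd163 and Folr2 did not pass the call rule, an adjusted p under 0.05 from edgeR's quasi-likelihood test over all genes. The rule called 6.87% of the 14012 genes tested in either direction, 3.95% as higher and 2.92% as lower; since the receptors were chosen on this contrast, nothing is read from their share. The median log2 fold change (DKO minus DKO/hA-I) was -0.73 over the 9 receptors and 0.015 over all genes tested. In whole tissue, fewer cells of a type and less RNA per cell cannot be told apart.

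**Figure D1:**
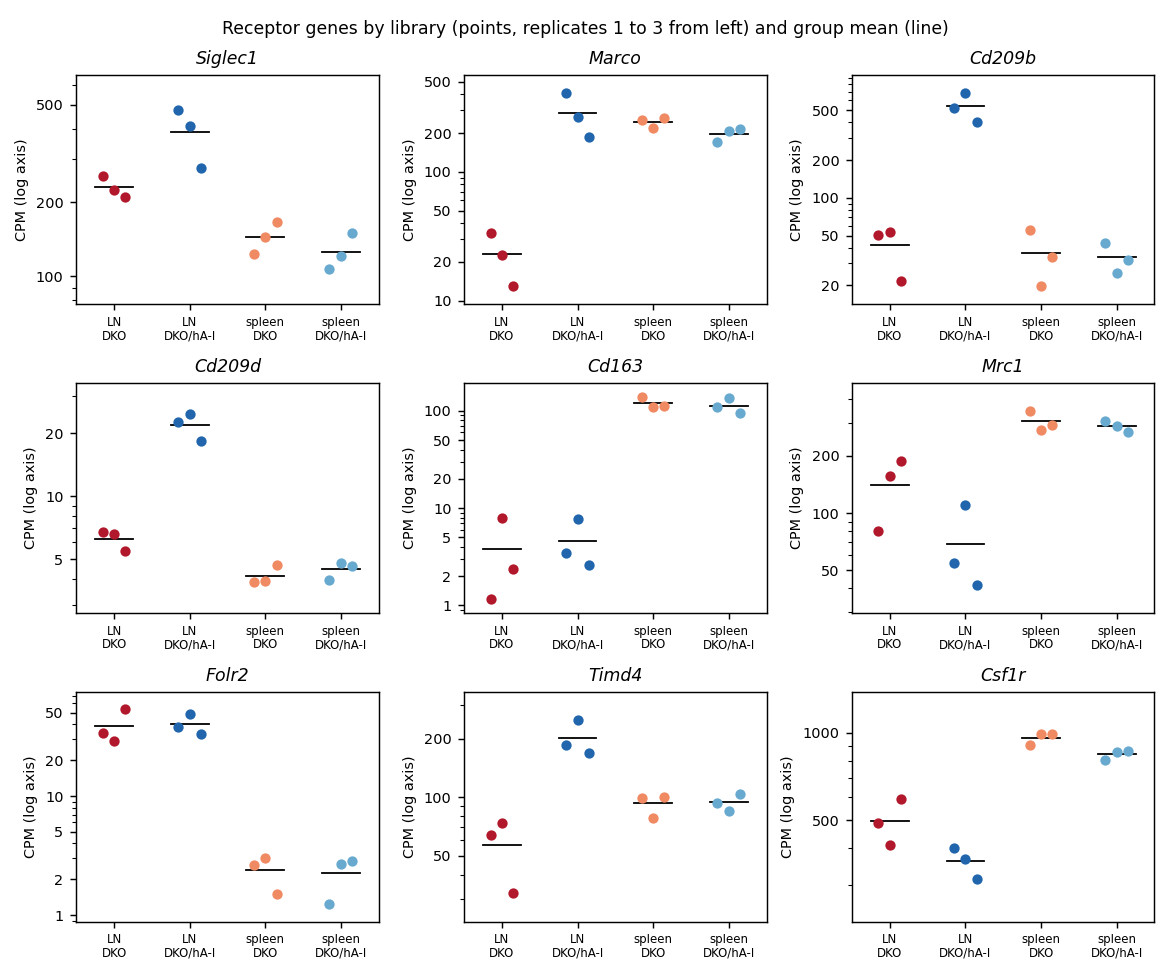
Level of each of the 9 receptor genes in CPM (log axis) in the 12 libraries, with replicates 1 to 3 of each group from left to right as points and the group mean as a line; LN is axillary lymph node. Marco, Cd209b, Cd209d and Timd4 lie lower in the 3 DKO nodes than in the 3 DKO/hA-I nodes, and 7 of the 9 genes overlap between the spleen groups.

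Marco (GRCm38 chr1:120474538-120505024, minus strand) encodes a class A scavenger receptor of marginal zone and medullary sinus macrophages, which binds bacteria and modified lipoproteins. It stood at 33.4, 22.4 and 13.1 CPM in DKO nodes 1 to 3 and at 406.5, 264.1 and 185.3 CPM in DKO/hA-I nodes 1 to 3. The lowest DKO/hA-I node was thus well above the highest DKO node. The means were 22.97 ± 10.2 and 285.3 ± 112.1 CPM (SD, n = 3 each), a log2 fold change of -3.62 ± 0.41 (SE), or 12.3-fold lower. Read counts behind these values were 133 to 371 per DKO node and 1723 to 4374 per DKO/hA-I node.

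Cd209b (chr8:3917655-3926844, minus strand) encodes SIGN-R1, a lectin of the marginal zone and of lymph node medullary macrophages that binds sialylated and microbial sugars. It had 50.3, 53.3 and 21.7 CPM in the DKO nodes against 515.7, 686.1 and 405 CPM in the DKO/hA-I nodes. The groups were 41.8 ± 17.4 and 535.6 ± 141.6 CPM (SD, n = 3 each), and the log2 fold change was -3.68 ± 0.38 (SE), 12.8-fold lower. Marco and Cd209b had log2 fold changes within 1 SE of each other.

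Cd209d (chr8:3871824-3878555, minus strand), a neighbouring lectin gene of the same family, was read at far fewer counts. It had 6.75, 6.58 and 5.47 CPM in the DKO nodes and 22.5, 24.8 and 18.4 CPM in the DKO/hA-I nodes. The DKO nodes lay close together and apart from the others, with means of 6.27 ± 0.693 and 21.9 ± 3.23 CPM (SD, n = 3 each). The log2 fold change was -1.80 ± 0.19 (SE), 3.47-fold lower.

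Other Cd209 genes were looked at because members of this family are near-identical copies, and the sources used here do not say how reads matching several copies were counted; values of single copies are therefore uncertain. Of the 5 others, named after their values were seen, Cd209e was lower in DKO nodes (1.00 ± 0.67 against 5.53 ± 2.49 CPM, SD, n = 3 each, log2 fold change -2.34 ± 0.53, edgeR adjusted p = 0.0434). Its call was lost in 5 of the 6 fits without 1 node, all but that without DKO replicate 2 (log2 fold change -2.91 to -1.97) and with limma voom (-2.38). Cd209f had 4, 7 and 1 reads in the DKO nodes and 20, 150 and 41 in the DKO/hA-I nodes (log2 fold change -3.84 ± 0.97, edgeR adjusted p = 0.0595), and DESeq2 and the fit of all 12 libraries called it as lower. Cd209g was too sparse to test, with 1, 2 and 1 reads against 6, 31 and 9, and had 0 reads in all 6 spleens. Cd209a, which marks dendritic cells and monocytes, and Cd209c had log2 fold changes of -0.84 ± 0.39 and -0.47 ± 0.27 (edgeR adjusted p = 0.228 and 0.323).

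Timd4 (chr11:46810800-46844332, plus strand) encodes TIM-4, through which resident macrophages tether dying cells that expose phosphatidylserine. It stood at 63.8, 73.6 and 32.1 CPM in the DKO nodes and at 186.2, 249.8 and 168.2 CPM in the DKO/hA-I nodes. The groups did not overlap, with means of 56.5 ± 21.7 and 201.4 ± 42.9 CPM (SD, n = 3 each). The log2 fold change was -1.83 ± 0.31 (SE), 3.55-fold lower. The call was lost in the fits without DKO replicate 1, DKO/hA-I replicate 1 or DKO/hA-I replicate 2, where the log2 fold change was -1.95, -1.89 and -1.64, whereas the calls of Marco, Cd209b and Cd209d held in each of the 6 fits without 1 node.

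Siglec1 (chr2:131069220-131086765, minus strand) encodes CD169, the sialic acid receptor that defines subcapsular sinus and metallophilic macrophages. It had 256.3, 225.2 and 210.6 CPM in the DKO nodes and 473.7, 411.4 and 276.3 CPM in the DKO/hA-I nodes. No DKO node reached a DKO/hA-I node, though DKO/hA-I replicate 3 was nearer to the DKO nodes than to the others of its group. With means of 230.7 ± 23.4 and 387.1 ± 100.9 CPM (SD, n = 3 each), the log2 fold change was -0.73 ± 0.20 (SE) and was not called. Without DKO/hA-I replicate 3 it was -0.94 and called.

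Csf1r (chr18:61100598-61132149, plus strand), the growth factor receptor that nearly all macrophages carry, stood on the other side of these genes. It stood at 488.8, 409.6 and 588.9 CPM in the DKO nodes and at 402.2, 367.4 and 313.2 CPM in the DKO/hA-I nodes, so its levels were higher in each DKO node than in any DKO/hA-I node. The means were 495.8 ± 89.8 and 360.9 ± 44.9 CPM (SD, n = 3 each), with a log2 fold change of 0.47 ± 0.17 (SE) that was not called. Without DKO replicate 2 it was 0.59 and called.

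Mrc1 (chr2:14229392-14332057, plus strand) encodes the mannose receptor CD206, carried by medullary and red pulp macrophages and by lymphatic endothelium. It had 80.6, 156.2 and 187.4 CPM in the DKO nodes and 54.6, 110.3 and 41.5 CPM in the DKO/hA-I nodes. The groups overlapped, since DKO/hA-I replicate 2 exceeded DKO replicate 1. The log2 fold change was 1.05 ± 0.42 (SE) and not called.

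Folr2, which encodes folate receptor beta of resident perivascular macrophages (chr7:101839988-101857194, minus strand), had 34.2, 28.9 and 53.9 CPM in DKO and 38.3, 48.9 and 33.1 CPM in DKO/hA-I nodes. Cd163, which encodes the haemoglobin-haptoglobin scavenger receptor (chr6:124304656-124330527, plus strand), had 1.17, 7.93 and 2.38 CPM against 3.44, 7.68 and 2.58 CPM, from 13 to 85 reads per node. Both genes overlapped between the groups, with log2 fold changes of -0.02 ± 0.25 and -0.34 ± 0.70 (SE, n = 3 each). The sign of either changed when single nodes were left out.

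Counted by overlap alone, 5 receptors (Siglec1, Marco, Cd209b, Cd209d and Timd4) were lower in every DKO node than in any DKO/hA-I node, 1 (Csf1r) was higher in every one, and 3 overlapped; 30.5% of the 14012 genes tested had no overlap. In the authors' deposited table, 5 of the 9 had a q-value under 0.05 in lymph node, Marco, Cd209b, Cd209d, Timd4 and Mrc1, as did 784 of its 23284 genes. Mrc1 was thus called there and not by edgeR.

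**Figure D2:**
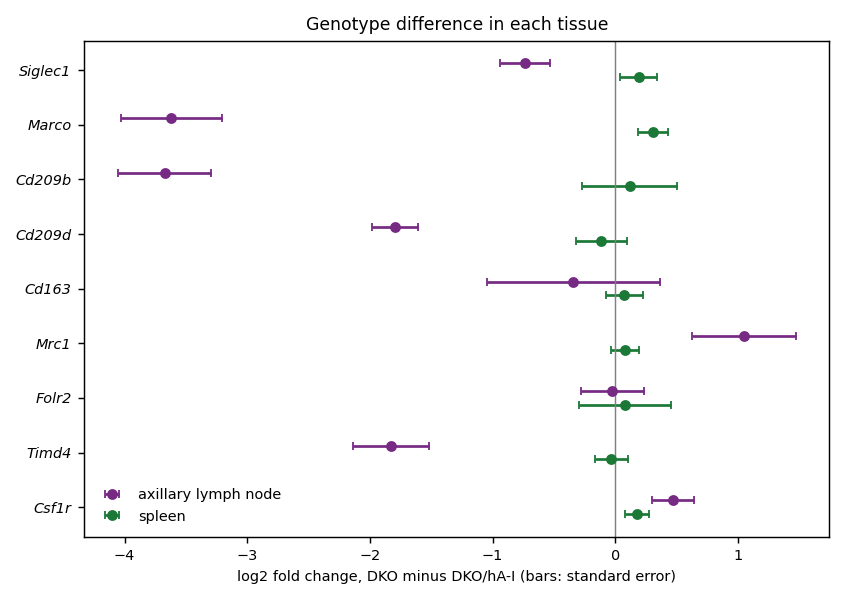
Log2 fold change (DKO minus DKO/hA-I, points) with its standard error (bars) for each of the 9 receptors in axillary lymph node and in spleen, 3 libraries per group. In lymph node Marco and Cd209b lie at -3.62 and -3.68 and Cd209d and Timd4 at -1.80 and -1.83, while the spleen values lie between -0.11 and 0.31.

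In each lymph node group 1 library stood at the edge for several receptors. DKO/hA-I replicate 3 had the lowest value of its group for all 9 receptors. DKO replicate 3 had the lowest value of its group for Siglec1, Marco, Cd209b, Cd209d and Timd4 and the highest for Mrc1, Folr2 and Csf1r. Among the 3 DKO nodes the first 5 genes were therefore lowest in the node where the last 3 were highest.

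Each receptor was also set against Csf1r in its own library. Marco had 2.22 to 6.83 reads per 100 Csf1r reads in DKO nodes and 59.2 to 101.1 in DKO/hA-I nodes. For Cd209b the ranges were 3.69 to 13.0 and 128.2 to 186.8, for Timd4 5.46 to 18.0 and 46.3 to 68.0, and for Cd209d 0.93 to 1.61 and 5.59 to 6.74. On this scale Siglec1 was also separated, with 35.8 to 55.0 against 88.2 to 117.8. Folr2 was at 7.0 to 9.16 against 9.52 to 13.3, while Mrc1 (16.5 to 38.1 against 13.3 to 30.0) and Cd163 (0.239 to 1.94 against 0.824 to 2.09) overlapped. Csf1r is itself one of the 9 genes and was higher in the DKO nodes, which widens the differences of genes that were lower there. Folr2 overlapped in CPM and was separated only on this scale. The log2 fold change of Csf1r (0.47) was below the median of the pan-macrophage genes (1.79), so this scale is not one of macrophage genes in general.

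**Figure D3:**
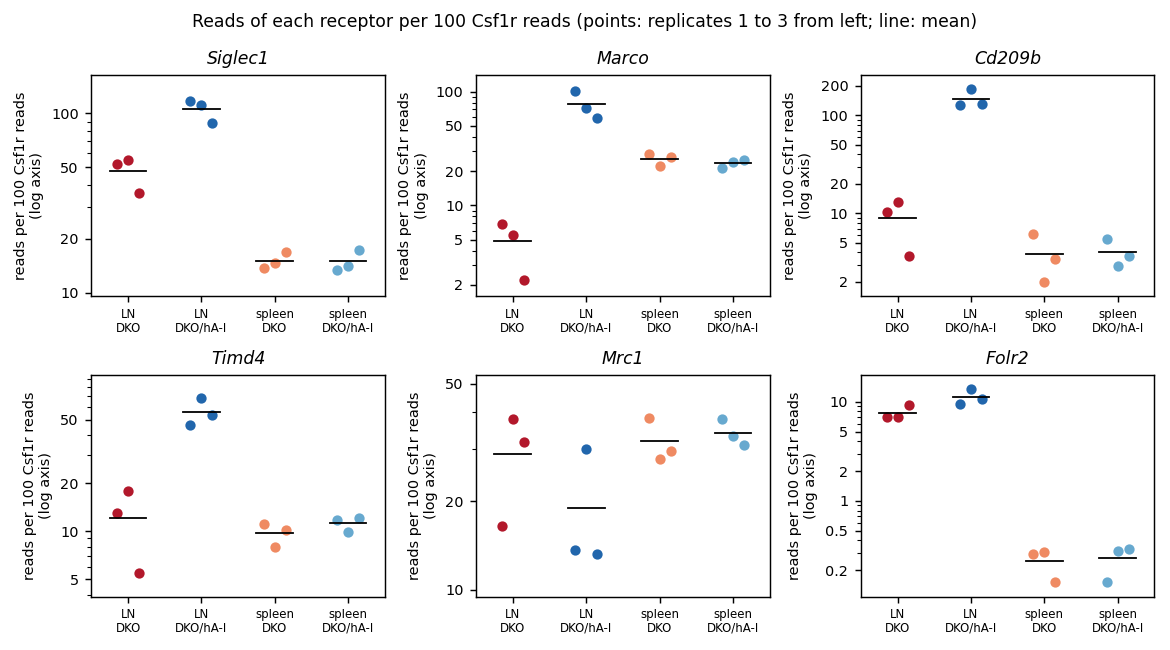
Reads of 6 receptors per 100 Csf1r reads of the same library (log axis), replicates 1 to 3 of each group from left to right as points and the group mean as a line. Siglec1, Marco, Cd209b, Timd4 and Folr2 lie lower in the 3 DKO nodes (LN) than in the 3 DKO/hA-I nodes, and Mrc1 overlaps. In CPM Folr2 overlaps as well, and Csf1r is higher in the DKO nodes.

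Other macrophage and tissue markers differed between the same nodes, and their part in the receptor differences was not tested. Beside 3.95% of all genes called as higher, 2.92% as lower and a median of 0.015, 9 of 14 pan-macrophage genes were higher and 0 lower in DKO nodes (median log2 fold change 1.79), among them the complement gene C1qa (log2 fold change 2.02 ± 0.30, edgeR adjusted p = 0.0147; 1.92 to 2.17 and not called without any 1 DKO/hA-I node). Their summed level was 14370, 9656 and 18610 CPM in DKO nodes 1 to 3 against 7046, 5530 and 5416 CPM. Thus the 4 receptors were lower in nodes whose common macrophage genes summed higher. When 1 node was left out, the count of 9 became 5, 11 and 4 for DKO nodes 1 to 3 and 2, 0 and 0 for DKO/hA-I nodes 1 to 3.

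Genes of lipid-associated macrophages, a state of lipid-laden tissue, were higher in 10 of 15 and lower in 1 (median 2.64). The secreted matrix protein gene Spp1 rose in DKO nodes (log2 fold change 4.94 ± 0.50, edgeR adjusted p = 0.00756), and Fabp4, a lipid-binding protein of adipocytes and macrophages, was the lower one (-3.25 ± 0.41, edgeR adjusted p = 0.0118). Their summed level was 8163, 2340 and 11300 CPM in the DKO nodes and 2172, 2565 and 1505 CPM in the DKO/hA-I nodes. The sum mixes opposite changes, since Fabp4 alone gave 733.2, 1047 and 350.8 CPM of it in the DKO/hA-I nodes and 53.1, 83 and 86.34 CPM in the DKO nodes. Gene by gene, 11 of the 15 were higher in each DKO node than in each DKO/hA-I node and 1 was lower. Over all 14012 genes tested, 30.5% had no overlap in either direction. Gpnmb, a glycoprotein of lipid-laden macrophages, stood at 2069, 356 and 2169 CPM against 67.83, 55.23 and 86.9 CPM, so DKO replicate 2 was the lowest DKO node and still above the other genotype. When 1 node was left out, the 10 higher genes became 4, 14 and 1 for DKO nodes 1 to 3 and 1, 1 and 2 for DKO/hA-I nodes 1 to 3.

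Adipocyte genes were lower in DKO nodes in 13 of 14 and higher in none (median -4.96). Plin1, which coats fat droplets, had a log2 fold change of -5.08 ± 0.56 (edgeR adjusted p = 0.00903). The list summed to 231.7, 239.4 and 264.3 CPM in the DKO nodes against 2481, 3069 and 1054 CPM in the DKO/hA-I nodes. DKO/hA-I replicate 3, the lowest of its group for each receptor, also had the lowest adipocyte sum of its group. This was not particular to adipocytes. The same node was lowest for the pan-macrophage (5416 CPM), lipid-associated (1505 CPM), interstitial (1610 CPM) and red pulp (524.4 CPM) macrophage sums. Its lymphatic endothelium and T cell sums (986.2 and 1411 CPM) were the highest of the group. When 1 node was left out, the 13 became 9, 10 and 7 for DKO nodes 1 to 3 and 8, 8 and 12 for DKO/hA-I nodes 1 to 3.

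**Figure D4:**
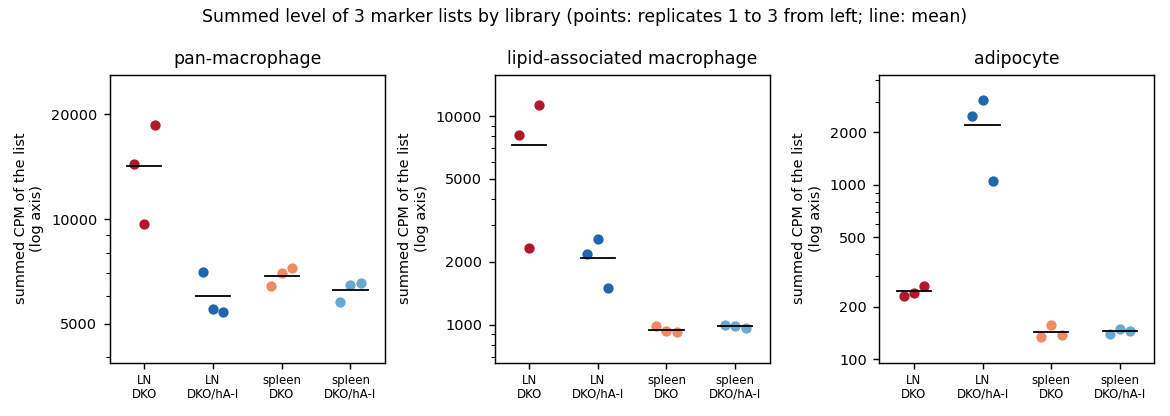
Summed CPM (log axis) of the pan-macrophage, lipid-associated macrophage and adipocyte marker lists in each library, replicates 1 to 3 of each group from left to right as points and the group mean as a line. In lymph node (LN) the pan-macrophage sum is higher in each DKO node, the lipid-associated sum of DKO replicate 2 (2340 CPM) lies among the DKO/hA-I nodes, whose sums include more Fabp4, and the adipocyte sum is lower in each DKO node.

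Lymphatic and sinus endothelium, the lining on which sinus macrophages sit, had 1 of 14 genes higher and 2 lower (median -0.21), with sums of 663 to 813.3 CPM in DKO and 930.5 to 986.2 CPM in DKO/hA-I nodes. Lyve1, a hyaluronan receptor of lymphatic endothelium and of some tissue macrophages, was at 122 ± 24 CPM against 213 ± 22 CPM (SD, n = 3 each, log2 fold change -0.80 ± 0.17, edgeR adjusted p = 0.0359). Ccrl1, the scavenging chemokine receptor of the sinus ceiling, was also lower (-1.36 ± 0.32, edgeR adjusted p = 0.048), and Pdpn, carried by lymphatic and reticular cells, was higher (1.95 ± 0.31, edgeR adjusted p = 0.017). The calls of Lyve1 and Ccrl1 were lost in 5 of the 6 fits without 1 node (all but that without DKO replicate 2), at log2 fold changes of -0.87 to -0.68 and -1.59 to -0.95. That of Pdpn was lost without any 1 of the DKO/hA-I nodes (1.91 to 1.98). Without 1 node the list had 0 to 1 genes higher and 0 to 3 lower.

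Among 17 further C-type lectin receptor genes tested, 4 were higher and 2 lower in DKO nodes (median -0.02). Clec4d and Clec12a, receptors of myeloid cells, were higher by 2.97 ± 0.40 and 1.96 ± 0.35 on the log2 scale (edgeR adjusted p = 0.0125 and 0.023). Clec4g, a lectin of sinusoidal endothelium in liver and lymph node, was lower, at 1.52 ± 0.48 CPM against 8.49 ± 2.4 CPM (SD, n = 3 each, log2 fold change -2.45 ± 0.34, edgeR adjusted p = 0.0138). The Clec4d call held in each fit without 1 node. That of Clec12a was lost without any 1 of the DKO/hA-I nodes (1.90 to 2.03), and that of Clec4g without DKO replicate 3 (-2.26) or DKO/hA-I replicate 2 (-2.22). Without 1 node the list had 1 to 5 genes higher and 0 to 5 lower.

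In 22 other genes of the receptor families, 5 were higher and 1 lower (median 0.42). The lower one, Siglech, a sialic acid receptor of plasmacytoid dendritic cells and of some marginal zone macrophages, had 16.7 ± 4.1 CPM against 80.5 ± 16 CPM (SD, n = 3 each, log2 fold change -2.27 ± 0.22, edgeR adjusted p = 0.0073), and its call held in each fit without 1 node. Colec12, a scavenger receptor of endothelium, was higher (1.38 ± 0.18, edgeR adjusted p = 0.0125; 1.37 and 1.36 and not called without DKO/hA-I replicate 1 or 2). With 1 node left out, the 5 higher genes became 3, 6 and 1 for DKO nodes 1 to 3 and 1, 0 and 1 for DKO/hA-I nodes 1 to 3, and 1 to 3 genes were lower.

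Genes upstream and downstream of Csf1r included 3 of 14 that were higher and none lower (median 0.28). Il34, a ligand of the receptor, stood at 12.7 ± 4.7 CPM against 3.88 ± 0.88 CPM (SD, n = 3 each, log2 fold change 1.73 ± 0.33, edgeR adjusted p = 0.0285). The adaptor Tyrobp was at 235 ± 87 against 91.3 ± 17 CPM (1.38 ± 0.29, edgeR adjusted p = 0.034). The calls of Il34 and Tyrobp were lost in 5 of the 6 fits without 1 node, all but that without DKO replicate 2, with log2 fold changes of 1.12 to 1.83. The count of 3 became 5 without DKO replicate 2 and 0 without any 1 of the other 5 nodes.

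Niche signals of the marginal zone and sinus, lymphotoxin, RANK and homing genes, were higher in 2 of 16 and lower in 0 (median 0.32), the 2 being the B cell chemokine Cxcl13 (1.34 ± 0.24, edgeR adjusted p = 0.0237) and the integrin Itgb2 (0.98 ± 0.22, edgeR adjusted p = 0.0428). Of 14 ligands and partners of the receptors, 2 were higher and 0 lower (median 0.76): Mertk and Mfge8, a receptor and a bridging protein for dying cells that act beside TIM-4, at 1.65 ± 0.25 and 1.73 ± 0.37 (edgeR adjusted p = 0.0162 and 0.0359). The Timd4 level was thus lower in DKO nodes where these 2 genes were higher. The calls of these 4 genes were lost in 3 to 5 of the 6 fits without 1 node, with log2 fold changes of 0.75 to 1.80, among them those that left out DKO node 3, DKO/hA-I node 2 or DKO/hA-I node 3. The niche list had 5 genes higher without DKO node 2 and 0 to 1 without another node, and the ligands and partners 9 and 0 to 1.

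Lists for other cells are read beside the 6.87% of all genes called. Interstitial macrophage genes were higher in 2 and lower in 1 of 13 (median log2 fold change 0.52), and red pulp macrophage genes higher in 1 of 12 (0.80). Monocyte genes were higher in 1 and lower in 1 of 12 (median 0.91), and conventional dendritic cell genes higher in 2 of 12 (-0.08). Marginal zone B cell genes were higher in 3 and lower in 1 of 9, with a median of -0.51. The higher ones included Myof (log2 fold change 2.13 ± 0.42) and S1pr3 (0.75 ± 0.15), with edgeR adjusted p of 0.0305 and 0.0317. Their calls were lost in 5 and 4 of the 6 fits without 1 node. The lower one was Cd1d1, the lipid-presenting molecule (log2 fold change -1.01 ± 0.19, edgeR adjusted p = 0.0258; -1.09 to -0.92 and not called without DKO replicate 3 or any 1 DKO/hA-I node). In these lists, in the order given, 8, 9, 9, 2 and 7 genes had an unadjusted p under 0.05 by edgeR. DESeq2 called 5, 5, 8, 2 and 6 genes. Over all genes the counts were 3516 by unadjusted p and 1967 by DESeq2. Without 1 node, the interstitial list had 0 to 4 genes higher and 0 to 2 lower, the red pulp list 0 to 2 higher, the monocyte list 0 to 4 higher and 0 to 1 lower, the dendritic cell list 0 to 2 higher and the marginal zone B cell list 0 to 3 in either direction. T cell, B cell and erythroid lists had 0 calls of 9, 8 and 4 genes by edgeR and limma voom, with 6, 3 and 1 genes at an unadjusted p under 0.05, and 4, 1 and 0 calls by DESeq2, all as lower. Their median log2 fold changes were -0.50, -0.43 and -0.89. The T cell sums were 741.1 to 1054 CPM in DKO nodes and 1208 to 1411 CPM in DKO/hA-I nodes. For B cells the sums were 2132 to 3300 and 3418 to 3714 CPM, and for erythroid genes 71.25 to 104.9 and 106.5 to 168.1 CPM.

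In spleen, 0 of the 9 receptors differed between the genotypes by the same rule, with adjusted p-values of 0.9285 to 0.9836 from edgeR. By DESeq2 and limma voom the count was also 0, and 1 of the 9 had an unadjusted p under 0.05. The rule called 0.00714% of the 14009 spleen genes, which is 1 gene, with 617 at an unadjusted p under 0.05. The middle numbers of the animal codes cross the genotypes here: 55 marks DKO replicate 3 and DKO/hA-I replicate 1, 56 marks DKO replicate 1, and 57 marks DKO replicate 2 and DKO/hA-I replicates 2 and 3. A block for that number raised the spleen calls to 515 genes, and leaving out DKO spleen 1 raised them to 167, with 0 receptors among either. The block moved Cd209b to -0.46 on the log2 scale, not called. The median log2 fold change (DKO minus DKO/hA-I) was 0.08 over the receptors and 0.007 over all genes.

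Marco had 254, 220.8 and 260.6 CPM in DKO spleens 1 to 3 and 170.7, 206.1 and 215 CPM in DKO/hA-I spleens. The groups did not overlap, and the log2 fold change was 0.31 ± 0.12 (SE, n = 3 each). Csf1r likewise did not overlap, at 903.9, 989.1 and 987 CPM against 805.4, 858.6 and 863.8 CPM (0.18 ± 0.098). The other 7 receptors overlapped; 10.6% of all spleen genes tested had no overlap.

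Siglec1 stood at 124, 144.9 and 166 CPM in DKO and 107.7, 121.1 and 149.9 CPM in DKO/hA-I spleens (log2 fold change 0.19 ± 0.15, SE, n = 3 each). Cd209b had 55.8, 19.7 and 33.8 CPM against 43.7, 24.9 and 31.7 CPM (0.12 ± 0.39), so a single spleen varied by more than the groups did. Timd4 was at 99.5, 78.6 and 100.8 CPM against 94.0, 84.9 and 104.6 CPM (-0.03 ± 0.13). The remaining log2 fold changes were -0.11 ± 0.20 for Cd209d, 0.07 ± 0.15 for Cd163, 0.08 ± 0.12 for Mrc1 and 0.08 ± 0.38 for Folr2. Folr2 rested on 14 to 33 reads per spleen and Cd209d on 35 to 54. Among the q-values of the authors' deposited table, 0 of the 9 receptors were under 0.05 in spleen. Of 193 genes on the 17 lists tested in spleen, edgeR, DESeq2 and limma voom called 0 between the genotypes, and 13 had an unadjusted p under 0.05 by edgeR.

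The genotype difference itself was compared between the tissues as the lymph node contrast minus the spleen contrast in one fit of all 12 libraries. The same 4 receptors were called, all as lower: Marco at -3.95 ± 0.44, Cd209b at -3.81 ± 0.55, Cd209d at -1.70 ± 0.26 and Timd4 at -1.82 ± 0.35 on the log2 scale (SE). The values of Siglec1 (-0.95 ± 0.27), Cd163 (-0.54 ± 0.66), Mrc1 (0.95 ± 0.46), Folr2 (-0.12 ± 0.48) and Csf1r (0.27 ± 0.20) were not called. Among 14608 genes the rule called 3.33%, 2.04% as higher and 1.29% as lower, and again nothing is read from the receptors' share. The Timd4 call was lost without DKO/hA-I node replicate 2 (-1.63), DKO/hA-I spleen replicate 2 (-1.745) or DKO spleen replicate 3 (-1.748), and Siglec1 was called without DKO/hA-I node replicate 3 (-1.14).

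Between the tissues, the receptors fell into those of spleen, those of lymph node and those whose side depended on the genotype. Cd163, Mrc1 and Csf1r were higher in spleen than in lymph node in both genotypes, and Siglec1, Folr2 and Cd209d were lower. Marco, Timd4 and Cd209b stood differently in the 2 genotypes. In DKO, 7 of 9 were called (4 higher and 3 lower in spleen), where the rule called 22.8% of 14608 genes, 11.5% as higher and 11.3% as lower. In DKO/hA-I, 8 of 9 were called (3 higher, 5 lower), where it called 25.7%, 14% as higher and 11.8% as lower.

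Cd163 showed the widest gap, 119.8 ± 15.9 CPM in DKO spleens against 3.83 ± 3.6 CPM in DKO nodes and 113.2 ± 19.5 against 4.57 ± 2.73 CPM in DKO/hA-I (SD, n = 3 each). The log2 fold changes (spleen minus lymph node) were 5.15 ± 0.50 and 4.61 ± 0.47 (SE), 35.5-fold and 24.4-fold higher. Folr2 had the reverse pattern, 2.39 ± 0.796 CPM in DKO spleens against 39.0 ± 13.2 CPM in DKO nodes, with log2 fold changes of -4.03 ± 0.34 and -4.15 ± 0.34, 16.3-fold and 17.7-fold lower. Both are receptors of resident macrophages, and in these libraries they marked opposite organs.

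Mrc1 was at 305 ± 37.1 and 287.1 ± 19.8 CPM in DKO and DKO/hA-I spleens against 141.4 ± 54.9 and 68.8 ± 36.5 CPM in the nodes (SD, n = 3 each), with log2 fold changes of 1.11 ± 0.33 and 2.06 ± 0.34 (SE). Csf1r was at 960 ± 48.6 and 842.6 ± 32.3 CPM in spleens against 495.8 ± 89.8 and 360.9 ± 44.9 CPM in nodes (0.95 ± 0.14 and 1.22 ± 0.14). Siglec1 was lower in spleens, at 145 ± 21 and 126.2 ± 21.6 CPM (-0.67 ± 0.19 and -1.62 ± 0.20). In DKO the calls of Mrc1, Cd209d and Siglec1 were less steady: that of Siglec1 was lost without DKO node replicate 1 or DKO spleen replicate 1 or 2 (-0.79 to -0.54 over the 6 fits without 1 library), and those of Mrc1 (0.82 to 1.36) and Cd209d (-0.70 to -0.51) in 5 of the 6.

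Marco was 3.42 ± 0.33 higher in DKO spleens than in DKO nodes on the log2 scale (SE), whereas in DKO/hA-I the tissues overlapped (-0.53 ± 0.29, not called). Cd209b showed the other picture: DKO spleens and DKO nodes overlapped (36.4 ± 18.2 and 41.8 ± 17.4 CPM, SD, n = 3 each, -0.19 ± 0.38), and in DKO/hA-I it was 16-fold lower in spleen (-4 ± 0.42). The values of the nodes thus reached those of the spleens in DKO/hA-I for Marco and in DKO for Cd209b. Timd4 was 0.73 ± 0.25 in DKO, not called, and -1.09 ± 0.25 in DKO/hA-I, called as lower in spleen. Cd209d was -0.58 ± 0.19 and -2.29 ± 0.18, called as lower in both. The pair of tissue contrasts and the pair of genotype contrasts rest on the same 12 libraries and are different views of them. Counted by overlap, 8 receptors in DKO and 8 in DKO/hA-I had no overlap between the tissues, against 32.7% and 45.6% of all genes tested.

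**Figure D5:**
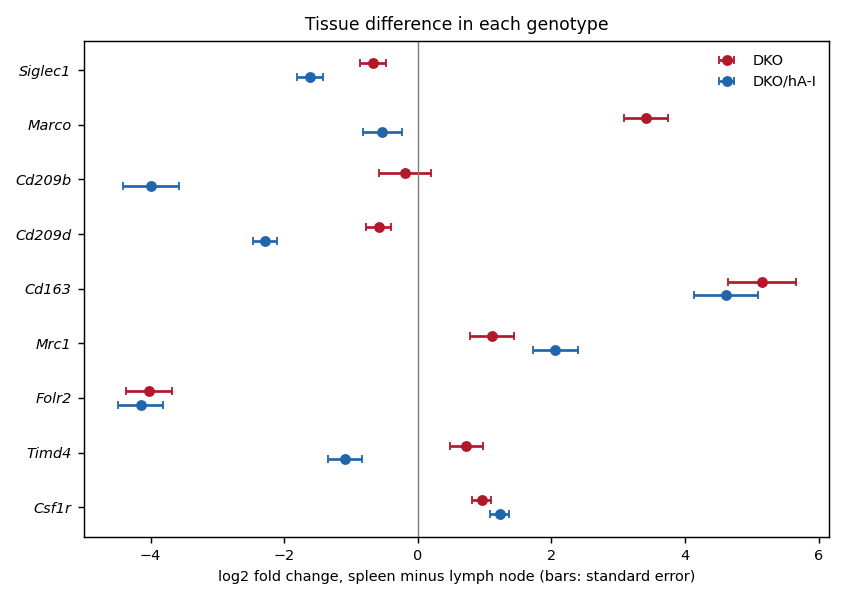
Log2 fold change (spleen minus axillary lymph node, points) with its standard error (bars) for each receptor in DKO and in DKO/hA-I mice, 3 libraries per group. Cd163 lies far to the spleen side and Folr2 far to the lymph node side in both genotypes, while Marco stands at 3.42 in DKO and -0.53 in DKO/hA-I and Cd209b at -0.19 and -4.

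Other cells differed between the organs as well, and their part in the tissue differences was not tested. In DKO, 9 of 12 red pulp macrophage genes were higher in spleen and 1 lower, and 9 of 9 erythroid genes were higher. There 4 of 9 T cell genes and 4 of 14 adipocyte genes were lower, and lymphatic endothelium genes were higher in 2 and lower in 5 of 14, beside 11.5% and 11.3% of all genes. In DKO/hA-I, beside 14% and 11.8%, 12 of 12 red pulp macrophage genes and 9 of 9 erythroid genes were higher in spleen, 9 of 9 T cell genes and 13 of 14 adipocyte genes were lower, and lymphatic endothelium genes were higher in 3 and lower in 7 of 14. Lyve1, at 98.4 to 236.1 CPM in the nodes, stood at 1.11 ± 0.542 CPM in DKO and 1.07 ± 0.664 CPM in DKO/hA-I spleens (SD, n = 3 each).

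To order the receptors by level, CPM was divided by the length of the merged exons of each gene in kilobases. On this scale Cd209b led in DKO/hA-I nodes (253.3 ± 67 CPM per kb, SD, n = 3), followed by Marco (148.2 ± 58.2), Timd4 (92.7 ± 19.7), Csf1r (62.5 ± 7.77) and Siglec1 (54.2 ± 14.1). Folr2 (25.9 ± 5.2), Cd209d (23.8 ± 3.52), Mrc1 (10.8 ± 5.73) and Cd163 (0.836 ± 0.5) came after them. Marco and Timd4, Csf1r and Siglec1, and Folr2 and Cd209d, lay within 1 SD of each other, taking the larger SD of the pair.

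In DKO nodes Csf1r led (85.9 ± 15.6 CPM per kb), ahead of Siglec1 (32.3 ± 3.27), Timd4 (26 ± 9.97), Folr2 (25.2 ± 8.55), Mrc1 (22.2 ± 8.62) and Cd209b (19.8 ± 8.25). Marco (11.9 ± 5.29), Cd209d (6.82 ± 0.754) and Cd163 (0.701 ± 0.66) were lowest. From Siglec1 to Cd209d the neighbours in this order lay within 1 SD of each other, taking the larger SD of the pair. The first place in the node thus belonged to a lectin gene in one genotype and to the growth factor receptor in the other.

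In both spleen groups the order was Csf1r (166.3 ± 8.41 CPM per kb in DKO and 145.9 ± 5.59 in DKO/hA-I), Marco (127.3 ± 11.1 and 102.5 ± 12.2), Mrc1 (47.9 ± 5.82 and 45.1 ± 3.1) and Timd4 (42.8 ± 5.73 and 43.5 ± 4.55). In both groups Mrc1 and Timd4 lay within the larger SD of the pair. Cd163 (21.9 ± 2.91 and 20.7 ± 3.56), Siglec1 (20.3 ± 2.94 and 17.7 ± 3.02) and Cd209b (17.2 ± 8.58 and 15.8 ± 4.5) followed without separating beyond their SDs. Cd209d (4.53 ± 0.513 and 4.87 ± 0.484) and Folr2 (1.55 ± 0.515 and 1.46 ± 0.574) were lowest.

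The genes whose profile over the 12 libraries lay nearest to each receptor were sought among 12366 genes, as the root mean square difference of log2(CPM + 0.1) after centring each gene on its mean. A value of 0 would be an identical profile. The 2 nearest to Marco were Gsta4 (0.58) and Prkar2b (0.61), and those nearest to Cd209b were Pdk4 (0.49) and Chpt1 (0.52). Nearest to Cd209d were Dbi (0.25) and Hadh (0.26), and to Timd4 Siglech (0.25) and Tob1 (0.32). The other receptors had Mmp15 and Pdzd2 (0.24 and 0.26, Siglec1), Svep1 and Trf (0.24 and 0.32, Mrc1), Cma1 and Serpina1e (0.32 and 0.47, Folr2), Efhd1 and Alox12 (0.40 and 0.42, Cd163) and Lrp5 and Epb4.1l3 (0.13 and 0.15, Csf1r). Among the receptors themselves the nearest pairs were Siglec1 with Cd209d (0.44), Mrc1 with Csf1r (0.54) and Cd209d with Timd4 (0.68). The 12 libraries are 4 groups, so nearness over them includes likeness of the 4 group means.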

How the data were processed

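Poly(A) RNA of axillary lymph node and spleen was sequenced, 3 libraries per genotype and tissue. Per the submitters' processing notes, reads were handled with Trimmomatic, Bowtie, TopHat and Cuffdiff against GRCm38 (mm10); the sources used here do not give versions, the counting program, its annotation or its use of strand, so reads of overlapping, antisense or near-identical genes may have been divided unevenly. The authors deposited raw counts per gene and library, per the file headers, beside their own genotype comparison with a deposited q-value (an adjusted p-value) per gene, of which only q was used. All count columns matched a library.

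The main test was the edgeR 4.0.16 quasi-likelihood test (R 4.3.3): filterByExpr (minimum count 10, minimum total 15), TMM scaling, robust fit, Benjamini-Hochberg adjustment over all genes tested, called at an adjusted p under 0.05. Genotypes were compared within each tissue, tissues and the genotype difference between tissues in one fit of 12 libraries. CPM is on the TMM scale over 12 libraries. The genotype comparison of each tissue and the tissue comparison in DKO were tried on simulated counts, with the same spread set for all genes. The tissue comparison in DKO/hA-I and the difference between tissues were not simulated. Within each group no library was a copy of another: chi-square per degree of freedom between replicates was 10 to 59.9. Libraries of different groups were not compared in this way. Codes of the labels differ for each library, and the error is the spread over these samples.

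The 9 receptors and 17 marker lists were chosen with earlier results of these data known. Named list genes are up to 3 called per list by adjusted p, otherwise 2 as values, of which most are named (1 called gene is not reported here); genes of the Cd209 family were added after their values were seen. Coordinates come from GENCODE vM21 (GRCm38, 89.8% of symbols matched), promoters from RefSeq (7 of the 9 genes have a window). Alternatives were RLE scaling, no filter, DESeq2 1.42.0, limma 3.58.1 voom, a replicate block, other sets of libraries, an animal code block in spleen and leaving out each library. Depth sets counting error only: 3 reads are 0.251 to 0.5075 CPM.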

Additional observations from a re-analysis of the deposited data

Results flagged for a closer look

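The genotype difference (DKO minus DKO/hA-I) of 4 receptors differed between lymph node and spleen in the fit of all 12 libraries. The lymph node minus spleen value on the log2 scale was -3.947 ± 0.44 for Marco, -3.809 ± 0.55 for Cd209b, -1.703 ± 0.26 for Cd209d and -1.817 ± 0.35 for Timd4 (SE, 3 libraries per group). The receptors were chosen with these libraries in view, so the values are a description.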

How the results depend on the processing

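Marco, Cd209b and Cd209d kept their lymph node call under each alternative tried, and the number of receptors called was 3 to 5 with single nodes left out and 4 to 6 otherwise; in spleen it was 0 and between the tissues in DKO/hA-I 8 under each alternative. Genes called in all depended more on the setting. In lymph node the 962 became 1967 with DESeq2, 438 with a replicate block, 2253 in one fit of all 12 libraries and 115 to 2245 without 1 library. In spleen the 1 became 5 with DESeq2, 515 with the animal code as a block and 1 to 167 without 1 library. The tissue count in DKO, 3325, was 2204 in the fit of 6 libraries, and its receptors called were 4 to 7 without 1 library. For the difference between tissues 487 became 973 with DESeq2, 242 with limma voom, 299 with a replicate block and 179 to 1160 without 1 library.

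Signs turned only for values that were not called. With the animal code block the spleen log2 fold change was -0.46 for Cd209b, -0.0397 for Cd163 and -0.0461 for Mrc1. Without 1 library the ranges were -1.356 to 0.275 (Cd163) and -0.346 to 0.145 (Folr2) in lymph node. In spleen they were -0.337 to 0.424 (Cd209b), -0.0496 to 0.219 (Cd163), -0.0321 to 0.161 (Mrc1), -0.211 to 0.326 (Folr2) and -0.100 to 0.0894 (Timd4). They were -0.610 to 0.107 for Cd209b between tissues in DKO, and -1.459 to 0.0714 (Cd163) and -0.415 to 0.176 (Folr2) for the difference between tissues. Causes of these shifts were not tested.

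Same-numbered replicates had r across genes of -0.141, 0.026 and -0.0343 in lymph node, and differently numbered ones -0.0946 to 0.17. With 3 libraries per group these values cannot settle whether the numbers pair samples. Not every library correlated best with its own number, and the replicate block left 4 receptors called in lymph node. The block also ended the calls of Cd209e (-2.284), Lyve1 (-0.813), Ccrl1 (-1.259), Il34 (1.679), Itgb2 (0.944), Mfge8 (1.593), Cd1d1 (-1.026) and Myof (1.946), and made one for Cd209f (-3.567). Limma voom ended those of Ccrl1 (-1.283), Itgb2 (0.935) and Mfge8 (1.569). Among the list genes named, Spp1, Fabp4, Plin1, Clec4d and Siglech kept the call in each fit without 1 node. Folr2 and Cd209d in spleen and Cd163 in nodes rest on the fewest reads.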
